A study of Mus musculus with 30 samples.

Results

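The comparison set the change of liver RNA in mice labelled as carrying an A1cf transgene beside the change in mice that lack A1cf, and asked which genes moved opposite ways and which moved the same way. Its members were 13 of the 30 libraries of the series: 4 pools labelled A1cf-transgenic (A1cf_Tg/+, called Tg), 3 wild-type C57BL/6J (6J) pools, 3 A1cf knockout (A1cf_-/-, KO) pools and 3 wild-type C57BL/6NJ (6NJ) pools. All were RNA pools of whole liver from 12-month-old mice, each made from 3 to 4 mice, and no treatment is given. Libraries were chosen by a fixed rule that left out 6J pool 2, since it held the skeletal muscle actin gene Acta1 at 778 CPM (counts scaled to a common library total), above the limit of 500. The highest value inside the limit was 44.8 CPM, in KO pool 1. The Tg pools have 6J pools and the KO pools 6NJ pools as controls, so that substrain and anything else that differed between the sets cannot be told apart between the controls. The change in Tg was measured beside 6J alone and that in KO beside 6NJ alone. Opposite or unequal changes therefore cannot be told apart from responses that depend on substrain or set. Not given in the sources used here are the promoter or cell type that drives the transgene, the exons removed in the knockout and whether pools share mice. The p-values measure the spread between pools.

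A1CF is an RNA-binding protein of the hepatocyte nucleus and cytoplasm. It serves APOBEC1 as a partner in RNA editing. That deaminase converts a cytidine of Apob mRNA to uridine and so creates the stop codon of the short apolipoprotein B. The protein also binds other liver transcripts.

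Total counts ran from 17044839 to 20711360 in the Tg and 6J pools used and from 25888485 to 35365817 in the KO and 6NJ pools. The first principal component held 65.1% of the variance and separated the Tg and 6J pools from the KO and 6NJ pools. The hepatocyte genes Alb, Ttr and Ahsg were abundant in every liver, and the summed level of the hepatocyte markers was 81091 to 93654 CPM in Tg, 113087 to 118338 in 6J, 72121 to 76260 in KO and 81352 to 86596 in 6NJ. The KO pools carried skeletal muscle RNA: Acta1 was 44.8, 8.21 and 34.2 CPM in KO pools 1, 2 and 3 and at most 0.0885 CPM in the 6NJ pools, and Ckm was 8.73, 0.939 and 6.53 CPM against at most 0.113 CPM. The left-out pool also differed in sex-linked RNA, with Xist at 935 CPM and Ddx3y at 0.198 CPM, whereas Xist was at most 3.91 CPM and Ddx3y at least 30.5 CPM in the 13 pools used. Among the Tg pools Ddx3y was lowest in pool 1, at 30.5 CPM, and 51.1 to 64.3 CPM in the others. The 6J pools used read 62.2, 71.3 and 68.3 CPM. By the test described below, 4 of 7 tested chromosome Y genes were called lower in Tg than in 6J (4.19% of all genes). In KO against 6NJ, 1 was called higher (0.427% of all genes). The part of muscle and sex-linked RNA in the results was not tested.

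A1cf itself, on chromosome 19 at 31868761 to 31949406 of GRCm38, was read first, as a check of the labels. In CPM scaled by trimmed mean of M-values (TMM-scaled CPM, the scale of all pool values from here on unless stated), it was 280, 231 and 230 in the 6J pools and 159, 147, 139 and 156 in the Tg pools. In the 6NJ pools it was 246, 213 and 203, and in the KO pools 25.3, 20.5 and 30.4. Every KO pool was far below every control pool, and every Tg pool lay between the control and KO levels. The log2 fold change was -3.12 ± 0.15 (standard error, SE; adjusted p = 2.49e-07) in the KO pools and -0.72 ± 0.13 (adjusted p = 0.00636) in the Tg pools. The count of A1cf thus fell in the pools labelled Tg as well, and no gain could be read from it. Whether the transgene's transcript is counted under this gene is not given in the sources used here, and the Tg pools are described by their label throughout.

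One model of the 4 groups gave each gene a Tg effect (Tg over 6J), a KO effect (KO over 6NJ) and the difference of the effects (Tg effect minus KO effect), all as log2 fold changes. A gene was called at an adjusted p below 0.05. Of 15911 genes tested, 314 (1.97%) were called in the difference, 183 with a higher and 131 with a lower value in Tg (58.3% higher, but 44.5% with limma-voom and 45.5%, 49.7%, 44.1% and 45.4% without 6J pool 1, 6J pool 4, KO pool 1 and KO pool 2), and 246 of them differed by at least 1 log2 unit. The Tg effect was called in 1720 genes (10.8%), of which 1054 rose and 666 fell, and the KO effect in 136 genes (0.855%), of which 68 rose and 68 fell. The order of these counts depended on the fit. With each effect fitted on its own libraries, 385 genes were called in Tg and 475 in KO. Calls per effect given below are those of the shared model unless stated. Of 20 tested skeletal muscle markers, 14 were among the 68 rises in KO (0.427% of all genes) and 9 among the 131 lower differences (0.823%), with a list median of 5.49 in KO. Acta1, by which the libraries were chosen, was among both. These muscle counts therefore only describe the pools. Both effects were called in 27 genes. Of these, 11 (0.0691% of genes tested) moved opposite ways and 16 (0.101%) moved the same way.

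The called differences came mainly from genes called in a single effect. Of the 314, 227 were called in the Tg effect alone, 42 in the KO effect alone, 32 in neither, 11 in both with opposite signs and 2 (A1cf among them) in both with the same sign. By the sign of the estimates alone, 144 lay above 0 in Tg and below 0 in KO, 125 the other way round, 30 above 0 in both and 15 below 0 in both. In the plot of the effects against each other, the 11 opposite genes lie in the upper left and lower right and the 16 same-way genes on the other diagonal.

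**Figure D1:**
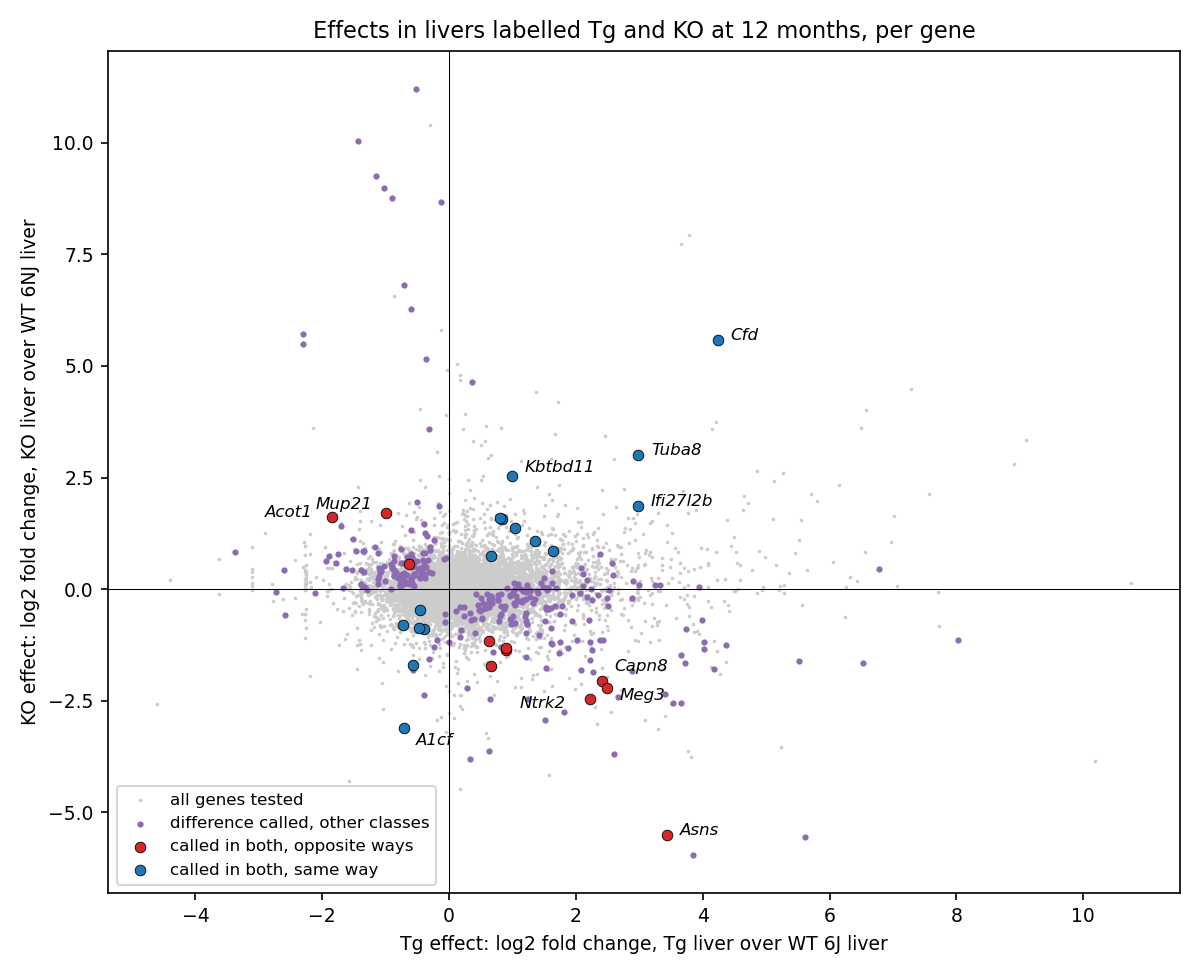
Tg effect (x axis) against KO effect (y axis), both as log2 fold changes, for the 15911 genes tested. Red points are the 11 genes called in both effects with opposite signs, blue points the 16 called in both with the same sign, purple points other genes called in the difference and grey points all genes tested; Asns lies at 3.44 and -5.50 and Cfd at 4.24 and 5.59.

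These counts moved with single pools. The 314 differences became 741 without Tg pool 1, 744 without Tg pool 2, 167 without 6J pool 1, 166 without 6J pool 3 and 183 without 6J pool 4. They became 68, 141 and 139 without KO pools 1, 2 and 3, and 125 and 96 without 6NJ pools 2 and 3. The 11 opposite genes became 17 without Tg pool 1, 7 without Tg pool 4, 5 and 7 without 6J pools 3 and 4, 5, 7 and 7 without KO pools 1, 2 and 3, and 6 without 6NJ pool 2. The 16 same-way genes became 34 without Tg pool 1, 10 without 6J pool 3, 7 and 8 without KO pools 1 and 3, and 9, 8 and 6 without 6NJ pools 1, 2 and 3. The 1720 genes of the Tg effect became 963 without Tg pool 3 and 830, 815 and 793 without 6J pools 1, 3 and 4, and the 136 of the KO effect became 55 and 75 without KO pools 1 and 3 and 71 and 72 without 6NJ pools 2 and 3. Asns, Meg3 and Acot1 among the opposite genes, and A1cf, Cfd and Pde1a among the same-way genes, remained called in both effects in all 13 fits that left out 1 pool. With limma-voom, however, Asns, Meg3 and Cfd were no longer called in both effects. With all 4 6J pools kept, Cfd and Pde1a were not.

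Among the 8 genes higher in Tg and lower in KO, Asns had the largest effects. Asns encodes asparagine synthetase, a target of the amino acid and integrated stress responses. It read 0.286, 0.710 and 0.432 in the 6J pools and 3.84, 3.21, 7.11 and 6.56 in the Tg pools. It read 2.93, 16.5 and 9.51 in the 6NJ pools and 0.202, 0.213 and 0.214 in the KO pools. No Tg or KO pool overlapped its controls (Tg and 6J pools did not overlap in 19.8% of all genes, KO and 6NJ pools in 24.3%), and the KO level lay below the lowest 6J pool. The Tg effect was 3.44 ± 0.59 (adjusted p = 0.00486), the KO effect -5.50 ± 0.63 (adjusted p = 0.000782) and the difference 8.93 ± 0.86 (adjusted p = 0.000469). The controls were as far apart as the effects, 6J being lower than 6NJ by a log2 value of -4.33 (adjusted p = 0.000146), so that the Tg level lay within the range of the 6NJ pools.

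The region before the start of Asns is shown because ATF4, the factor of the integrated stress response, acts on the Asns promoter. A search of the 250 bases before each start for TGATGNAA, the core of CCAAT-enhancer-binding and ATF factor sites, on both strands, matched 3.45% of 32851 mouse promoters of the RefSeq table (GRCm38.p6). Of the 27 genes called in both effects, 22 had a promoter in that table, and Asns alone held the motif. For TGACGTCA, the cAMP response element, the share was 1.55%, and of the 22 genes Meg3 alone held it. The letters AGGTCA repeated after 1 base, a direct repeat bound by PPAR and related receptors, were found in 0.0335% of promoters and in none of the 22, and GAAA repeated after 2 bases, an interferon-type repeat, in 2.98% and, of the 22, in Cyp4a32 alone. A match describes letters only. The promoters of the 3 opposite genes that remained called in every fit without 1 pool read as follows, with matches in capitals. They stand at chr6:7693210-7693459 (minus strand, Asns), chr12:109540746-109540995 (plus strand, Meg3, the match-bearing of its 2 listed starts) and chr12:84009252-84009501 (plus strand, Acot1, with no match).
Asns: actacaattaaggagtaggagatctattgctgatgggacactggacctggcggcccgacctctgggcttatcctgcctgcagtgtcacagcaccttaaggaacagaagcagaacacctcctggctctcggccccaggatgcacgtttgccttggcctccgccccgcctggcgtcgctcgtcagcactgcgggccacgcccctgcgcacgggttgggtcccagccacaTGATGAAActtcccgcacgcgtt
Meg3: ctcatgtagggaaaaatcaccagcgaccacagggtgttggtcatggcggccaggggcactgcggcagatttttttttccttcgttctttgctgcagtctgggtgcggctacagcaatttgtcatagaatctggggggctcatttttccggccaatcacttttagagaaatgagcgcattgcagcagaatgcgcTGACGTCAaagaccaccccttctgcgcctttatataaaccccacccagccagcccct
Acot1: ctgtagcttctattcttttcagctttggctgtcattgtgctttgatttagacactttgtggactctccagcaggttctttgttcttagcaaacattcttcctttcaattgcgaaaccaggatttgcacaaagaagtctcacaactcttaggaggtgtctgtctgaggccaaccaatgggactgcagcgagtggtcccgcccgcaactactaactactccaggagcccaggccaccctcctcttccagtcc

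The match of Asns began 23 bases before the listed start and that of Meg3 57 bases before it. Of 30 tested genes of the integrated stress response list, Asns alone was called in the difference (1.97% of all genes were called). In that list 3 genes rose in Tg (Asns, Fgf21 and Slc7a11), none fell, and Asns alone fell in KO (6.62% of all genes rose in Tg and 0.427% fell in KO). The list's median was 0.11 for the Tg effect and -0.01 for the KO effect, the latter turning to 0.01 under upper-quartile scaling, beside -0.01 and -0.00 over all genes. Fgf21, a secreted hormone of fasting and stress, read 0.801, 1.75, 25.6 and 9.38 in the Tg pools against 0.458, 1.12 and 1.11 in 6J (Tg effect 3.39, adjusted p = 0.0401). It read 0.472, 1.31 and 0.925 in KO against 2.57, 2.70 and 4.12 in 6NJ, and its difference of 5.19 did not pass (adjusted p = 0.0619). Most genes of the list were called in neither effect.

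Meg3, an imprinted maternally expressed long non-coding RNA, was rare in the Tg and 6J pools and more abundant in the KO and 6NJ pools. The 6J pools held 3, 1 and 2 counts (0.172, 0.0592 and 0.124 TMM-scaled CPM) and the Tg pools 15, 10, 20 and 13 counts (0.801, 0.472, 0.847 and 0.632). The 6NJ pools read 13.6, 9.77 and 11.6 and the KO pools 3.00, 1.63 and 2.92. The Tg effect of 2.49 ± 0.46 (adjusted p = 0.00678) rests on these few counts, and the KO effect was -2.21 ± 0.26 (adjusted p = 0.000902). The gap between the controls, -6.56 in log2 (adjusted p = 2.46e-08), was larger than either effect, and every KO pool remained above every Tg pool.

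Capn8 and Ntrk2 followed with effects of more than 2 log2 units on each side. Capn8, a calcium-dependent protease, read 2.69, 1.83 and 3.15 in 6J, 13.6, 14.5, 10.5 and 16.0 in Tg, 5.02, 13.8 and 12.6 in 6NJ and 2.06, 2.69 and 2.78 in KO. The Tg level was thus near that of the 6NJ pools and the KO level near that of the 6J pools. Its effects were 2.41 ± 0.32 (adjusted p = 0.0016) and -2.06 ± 0.32 (adjusted p = 0.00632), the latter at an adjusted p of 0.0627 without KO pool 1. Ntrk2, the receptor for brain-derived neurotrophic factor, read 12.3, 13.2 and 14.8 in 6J and 99.7, 78.6, 35.0 and 37.8 in Tg. It read 4.54, 1.68 and 3.40 in 6NJ and 0.506, 0.638 and 0.569 in KO, so that here the 6J controls were the higher ones. Its effects were 2.22 ± 0.37 (adjusted p = 0.00416) and -2.46 ± 0.51 (adjusted p = 0.0424), and the KO effect had an adjusted p of 0.193 without KO pool 1. Ntrk2 remained called in both effects in 5 of 13 fits without 1 pool.

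The other 4 genes of this kind had Tg effects under 1 log2 unit. Csad, the cysteine sulfinate decarboxylase of taurine synthesis, read 55.2, 48.0 and 76.3 in 6J and 86.9, 102, 110 and 148 in Tg, and 107, 158 and 96.7 in 6NJ and 44.7, 44.5 and 55.3 in KO. Its effects were 0.90 ± 0.22 (adjusted p = 0.0198) and -1.32 ± 0.23 (adjusted p = 0.0122), and the KO effect had an adjusted p of 0.0916 without KO pool 1. A2ml1, a protease inhibitor of the alpha-2-macroglobulin family, read 21.9, 14.8 and 20.2 in 6J and 26.4, 32.6, 41.5 and 40.3 in Tg, and 15.4, 21.1 and 18.1 in 6NJ and 7.73, 4.89 and 8.79 in KO. The A2ml1 pools of the controls overlapped, with a control difference of 0.06 (adjusted p = 0.887). Its effects were 0.89 ± 0.21 (adjusted p = 0.0195) and -1.35 ± 0.23 (adjusted p = 0.0115), the former at 0.0858 without 6J pool 3.

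Ccdc171 read 8.65 to 11.2 in 6J, 12.1 to 20.7 in Tg, 13.1 to 18.8 in 6NJ and 4.35 to 5.10 in KO, with effects of 0.66 (adjusted p = 0.0379) and -1.73 (adjusted p = 0.000827). Tmem62 read 10.1 to 13.2 in 6J, 15.4 to 21.7 in Tg, 10.1 to 16.1 in 6NJ and 5.20 to 7.26 in KO, with effects of 0.63 (adjusted p = 0.0472) and -1.17 (adjusted p = 0.0117). These were the least stable calls of this group. Each remained called in both effects in 4 of 13 fits without 1 pool, and their Tg effects reached adjusted p values of 0.128 without 6J pool 4 (Ccdc171) and 0.157 without 6J pool 1 (Tmem62).

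**Figure D2:**
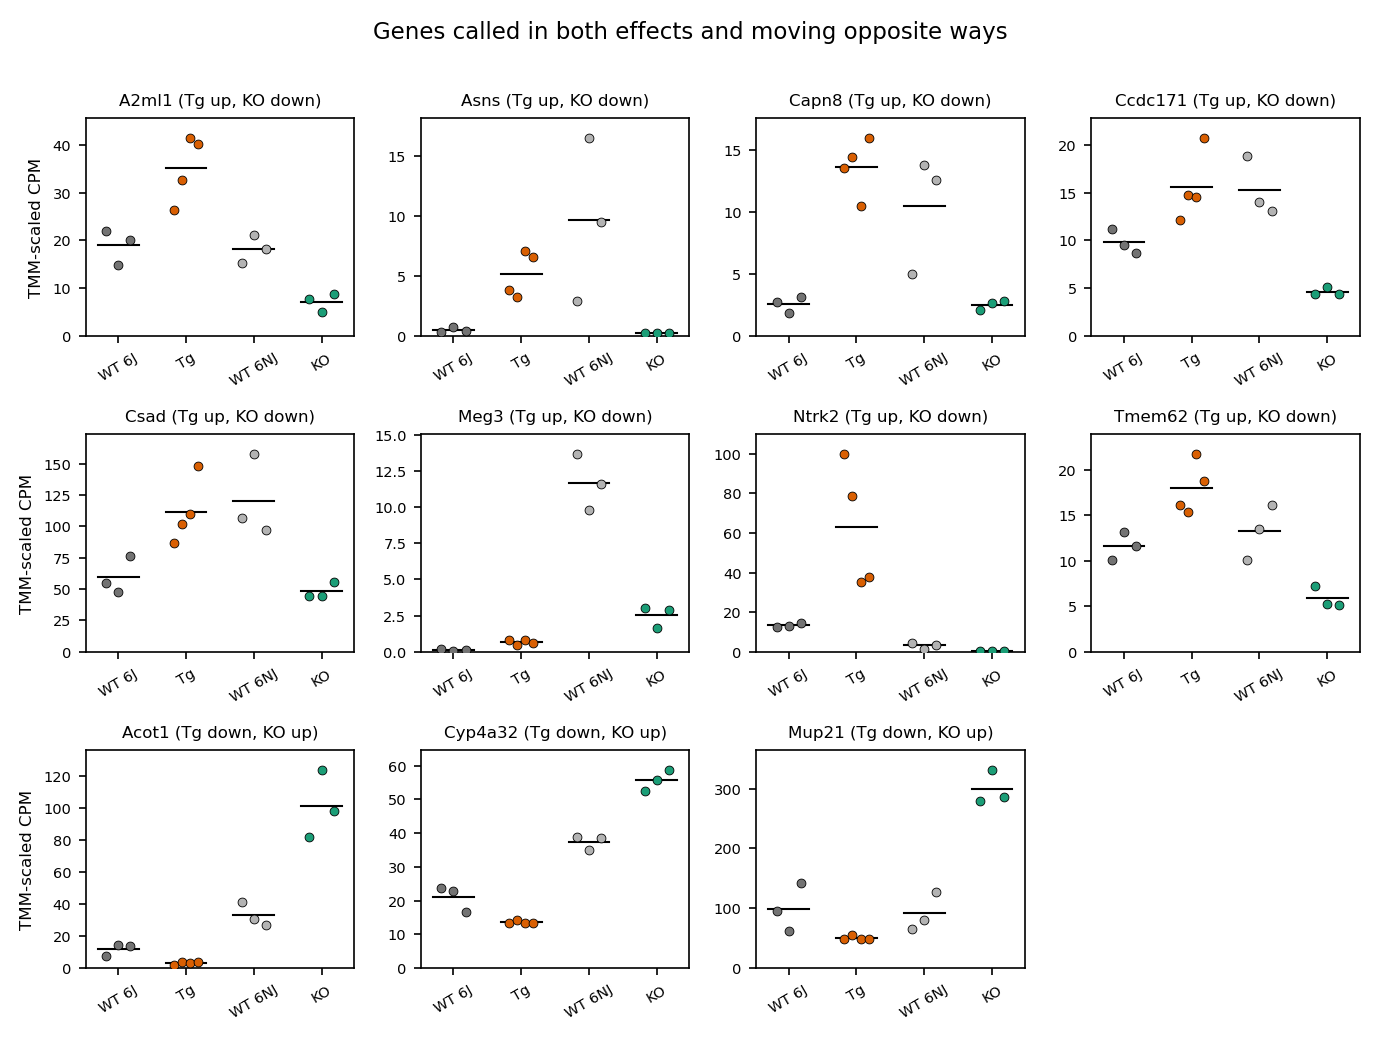
TMM-scaled CPM (y axis, from 0) of the 11 genes called in both effects with opposite signs, in the 3 WT 6J, 4 Tg, 3 WT 6NJ and 3 KO pools. Points are pools and horizontal lines group means; in each panel the Tg pools lie on one side of the WT 6J pools and the KO pools on the other side of the WT 6NJ pools, at control levels that differ by a log2 value of -4.33 for Asns and 0.06 for A2ml1.

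The 3 genes that were lower in Tg and higher in KO are the acyl-CoA thioesterase Acot1, the fatty acid omega-hydroxylase Cyp4a32 and the major urinary protein Mup21. Acot1 read 7.33, 14.3 and 13.6 in 6J and 2.14, 3.87, 3.39 and 3.55 in Tg, and 41.3, 30.7 and 26.5 in 6NJ and 81.4, 123 and 97.9 in KO. The order was Tg, 6J, 6NJ and KO, with no overlap between neighbours. Its effects were -1.85 ± 0.26 (adjusted p = 0.00177) and 1.62 ± 0.25 (adjusted p = 0.00553), and the difference was -3.47 ± 0.36 (adjusted p = 0.000541). Cyp4a32 had the same order, at 23.7, 22.8 and 16.5 in 6J, 13.3, 14.3, 13.5 and 13.4 in Tg, 39.0, 35.0 and 38.5 in 6NJ and 52.6, 55.7 and 58.7 in KO. Its effects of -0.62 ± 0.12 (adjusted p = 0.0068) and 0.57 ± 0.12 (adjusted p = 0.0424) were the smallest of the opposite genes, and the KO effect had an adjusted p of 0.181 without 6NJ pool 2. Cyp4a32 remained called in both effects in 4 of 13 fits without 1 pool.

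Mup21 read 95, 61.4 and 142 in 6J, 48.3, 54.7, 48.4 and 48.7 in Tg, 65.9, 81.0 and 127 in 6NJ and 280, 331 and 286 in KO. The controls overlapped, with a difference of 0.12 (adjusted p = 0.792). Its effects were -0.99 ± 0.24 (adjusted p = 0.0221) and 1.71 ± 0.27 (adjusted p = 0.00632), the former at 0.111 without 6J pool 4. Mup21 is one of a male-biased gene family. In the list of 22 male-biased liver genes 1 rose and 4 fell in Tg (Mup2, Mup3 and Mup12 beside Mup21), and 2 rose in KO (Mup20 and Mup21), beside 6.62% of all genes that rose and 4.19% that fell in Tg and 0.427% that rose in KO, with medians of -0.08 and 0.25. The MUP, CYP4A and ACOT genes have close paralogs, and how the authors' counting split reads among them is not given.

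The list of PPARalpha targets and fatty acid oxidation genes, 33 tested, held 2 of the 11 opposite genes. PPARalpha is the nuclear receptor that induces fatty acid catabolism in fasting liver. In the difference 5 of its genes were lower (Acot1, Acot2, Acot3, Acot4 and Cyp4a32; 0.823% of all genes were lower) and 2 higher (Ucp2 among them; 1.15% of all genes). The list's median was -0.30 for the Tg effect, 0.29 for the KO effect and -0.51 for the difference, beside -0.01, -0.00 and 0.01 over all genes. In Tg 6 of its genes fell and 3 rose (4.19% and 6.62% of all genes), and in KO 3 rose and 1 fell (0.427% of all genes each way). The Tg median was not particular to this list. It was -0.34 for hepatocyte markers, -0.27 for periportal genes and -0.25 for bile acid synthesis and transport. The KO medians of those lists were -0.07, -0.07 and 0.07. Acute-phase proteins went the other way, at 0.44 in Tg and -0.29 in KO.

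The Acot genes stand next to each other on chromosome 12. Acot2 encodes the mitochondrial member. It read 4.53, 7.16 and 7.35 in 6J, 2.24, 5.53, 4.74 and 4.18 in Tg, 10.8, 6.95 and 9.28 in 6NJ and 17.9, 26.2 and 23.6 in KO. Its KO effect was 1.33 (adjusted p = 0.0395) and its Tg effect -0.60 (adjusted p = 0.179). Acot3, a peroxisomal member, read 7.05, 41.5 and 37.7 in 6J and 0.587, 4.06, 3.47 and 2.77 in Tg (Tg effect -3.38, adjusted p = 0.00456), and 40.2, 26.5 and 15.6 in 6NJ and 49.4, 42.4 and 55.6 in KO (KO effect 0.84, adjusted p = 0.575). For Acot4, also peroxisomal, the effects were -1.78 (adjusted p = 0.00235) and 0.59 (adjusted p = 0.394). The differences of Acot2, Acot3 and Acot4 were -1.92, -4.22 and -2.37 (adjusted p = 0.0252, 0.018 and 0.00847).

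Other genes named with that receptor did not show the opposite pattern in both effects. Cyp4a10 read 28.0 to 163 in 6J, 31.8 to 67.9 in Tg, 345 to 418 in 6NJ and 776 to 1822 in KO, and its difference of -2.51 did not pass (adjusted p = 0.0735). Cyp4a14 read 10.0 to 59.2 in 6J, 54.4 to 134 in Tg, 219 to 331 in 6NJ and 450 to 1761 in KO, with a difference of -0.37 (adjusted p = 0.844). Fabp1, the liver fatty acid-binding protein, was lower in Tg at -0.87 (adjusted p = 0.0134), its KO effect was 0.74 (adjusted p = 0.136), and its difference of -1.6 passed (adjusted p = 0.0138). Ucp2, a mitochondrial carrier, rose in Tg by 1.54 (adjusted p = 0.000363) with a KO effect of 0.02. Cyp4a10, Cyp4a14, Fabp1 and Acot2 were chosen after their values were seen.

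Of the 16 genes that moved the same way, 10 were higher and 6 lower in both Tg and KO. Cfd, which encodes complement factor D (adipsin), a serine protease abundant in fat, had the largest rises. It read 0.229, 1.6 and 0.309 in 6J and 15.4, 26.2, 2.67 and 10.1 in Tg, and 2.25, 2.17 and 3.23 in 6NJ and 122, 75.8 and 175 in KO. Its effects were 4.24 ± 0.78 (adjusted p = 0.0068) and 5.59 ± 0.69 (adjusted p = 0.00111), and their difference of -1.35 did not pass (adjusted p = 0.545). Other fat cell markers were low: in deposited CPM Adipoq was 0.392, 0 and 0.609 in the KO pools, at most 0.141 in 6NJ, at most 0.0966 in Tg and 0 in the 6J pools used, and Plin1 was 0.621, 0.0348 and 0.710 in KO and at most 0.0551 in the others. Among the KO pools Cfd, Adipoq and Plin1 were each highest in pool 3 and lowest in pool 2, where Adipoq was 0 and Cfd 75.8. The part of fat cell RNA in the Cfd values was not tested.

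Ifi27 and Ifi27l2b, neighbouring interferon-inducible genes of chromosome 12, rose in both. Ifi27 read 42.6, 46.2 and 64.8 in 6J, 159, 126, 137 and 101 in Tg, 58.5, 53.3 and 49.5 in 6NJ and 115, 101 and 125 in KO. The controls were alike and the Tg and KO pools lay at similar levels, with effects of 1.35 ± 0.17 (adjusted p = 0.00113) and 1.08 ± 0.18 (adjusted p = 0.00885), the latter at 0.061 without 6NJ pool 3. Ifi27l2b read 3.49, 4.67 and 5.62 in 6J, 36.5, 28.2, 50.1 and 30.4 in Tg, 5.58, 2.54 and 6.69 in 6NJ and 16.1, 10.9 and 26.9 in KO, with effects of 2.98 ± 0.38 (adjusted p = 0.00118) and 1.86 ± 0.37 (adjusted p = 0.0314), the latter at 0.148 without KO pool 3. In the list of interferon-stimulated genes, 33 tested, 8 rose in Tg and Ifi27l2b alone rose in KO (6.62% and 0.427% of all genes), with medians of 0.77 and 0.25 and no gene called in the difference.

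Col4a2, a chain of basement membrane collagen, read 41.1, 43.6 and 38.2 in 6J, 134, 98.8, 171 and 109 in Tg, 50.3, 52.3 and 51.9 in 6NJ and 86.6, 89.6 and 104 in KO. Its effects were 1.64 ± 0.16 (adjusted p = 0.000363) and 0.86 ± 0.17 (adjusted p = 0.0273), the latter at 0.136 without KO pool 3. Col4a2 was the member of the stellate cell and fibrosis list, 32 tested, that rose in KO, whereas 21 of the list rose in Tg and none fell in either effect (6.62% of all genes rose in Tg and 0.427% in KO). The list's medians were 0.99 and 0.36. Its summed level in deposited CPM was 1576 to 2376 in Tg, 911 to 1007 in the 6J pools used and 1474 in the left-out 6J pool 2. In bulk liver, more cells of a type and more RNA per cell cannot be told apart.

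Tuba8, an alpha-tubulin, read 0.516, 0.887 and 0.432 in 6J, 2.03, 2.13, 7.15 and 8.17 in Tg, 0.602, 0.683 and 0.231 in 6NJ and 4.52, 2.62 and 4.95 in KO. The effects were near each other, at 2.98 ± 0.59 (adjusted p = 0.00934) and 3.00 ± 0.59 (adjusted p = 0.0307), and the KO effect had an adjusted p of 0.161 without 6NJ pool 3. Rarres1, a retinoic acid-responsive gene, read 39.4, 42.5 and 62.8 in 6J, 84.1, 84.7, 109 and 66.4 in Tg, 68.8, 63.9 and 61.9 in 6NJ and 185, 175 and 220 in KO. Its effects were 0.83 ± 0.18 (adjusted p = 0.0128, and 0.0586 without 6J pool 3) and 1.58 ± 0.19 (adjusted p = 0.001). Pde1a, a calmodulin-dependent phosphodiesterase, read 3.04, 4.50 and 3.09 in 6J, 5.93, 8.60, 6.98 and 7.68 in Tg, 4.13, 3.82 and 4.44 in 6NJ and 11, 9.53 and 11.5 in KO, with effects of 1.04 ± 0.18 (adjusted p = 0.00486) and 1.37 ± 0.18 (adjusted p = 0.00183). For all 3 genes the KO pools lay above every control pool of either substrain.

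Kbtbd11, Rab34 and Apoc2 completed the rises. Kbtbd11 rose by 1.00 in Tg (adjusted p = 0.0404) and 2.53 in KO (adjusted p = 0.000714), with KO pools at 14 to 22.6 and all others at 1.98 to 6.38. Rab34, a small GTPase, rose by 0.80 (adjusted p = 0.049) and 1.6 (adjusted p = 0.00527). Apoc2, the activator of lipoprotein lipase, read 168 to 236 in 6J, 280 to 414 in Tg, 160 to 187 in 6NJ and 276 to 298 in KO, with effects of 0.67 (adjusted p = 0.0155) and 0.74 (adjusted p = 0.0494). Of 13 fits without 1 pool, Kbtbd11 remained called in both effects in 7, Rab34 in 2 and Apoc2 in 3. The highest adjusted p values were 0.141 for the Tg effect of Kbtbd11 (without 6J pool 4) and 0.149 for that of Rab34 (without 6J pool 3). For the KO effect of Apoc2 the highest was 0.194, without 6NJ pool 2.

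Beside A1cf, the genes lower in both included Slc33a1, Abhd18, Amy1 and Btbd1. Slc33a1, an acetyl-CoA transporter, read 43.4, 43.8 and 43.9 in 6J, 36.8, 30.5, 30.1 and 35.9 in Tg, 31.6, 30.9 and 34.3 in 6NJ and 17.4, 16.8 and 17.8 in KO. Its effects were -0.39 ± 0.09 (adjusted p = 0.0185, and 0.0609 without Tg pool 3) and -0.90 ± 0.10 (adjusted p = 0.000689).

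Abhd18, Amy1 and Btbd1 fell by less than 1 log2 unit in each effect. Abhd18 fell by 0.73 in Tg (adjusted p = 0.00558) and by 0.79 in KO (adjusted p = 0.0133, and 0.0928 without KO pool 3). Amy1, an amylase with close paralogs, fell by 0.47 (adjusted p = 0.0463, and 0.183 without 6J pool 3) and by 0.86 (adjusted p = 0.0135), and Tg pool 2 overlapped 6J pool 1. Btbd1 fell by 0.46 in each (adjusted p = 0.00983 and 0.0415, the latter 0.19 without 6NJ pool 3), although its control levels differed by -0.91 (adjusted p = 1.29e-05). Of 13 fits without 1 pool, Abhd18 remained called in both effects in 9, Btbd1 in 4 and Amy1 in 3.

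**Figure D3:**
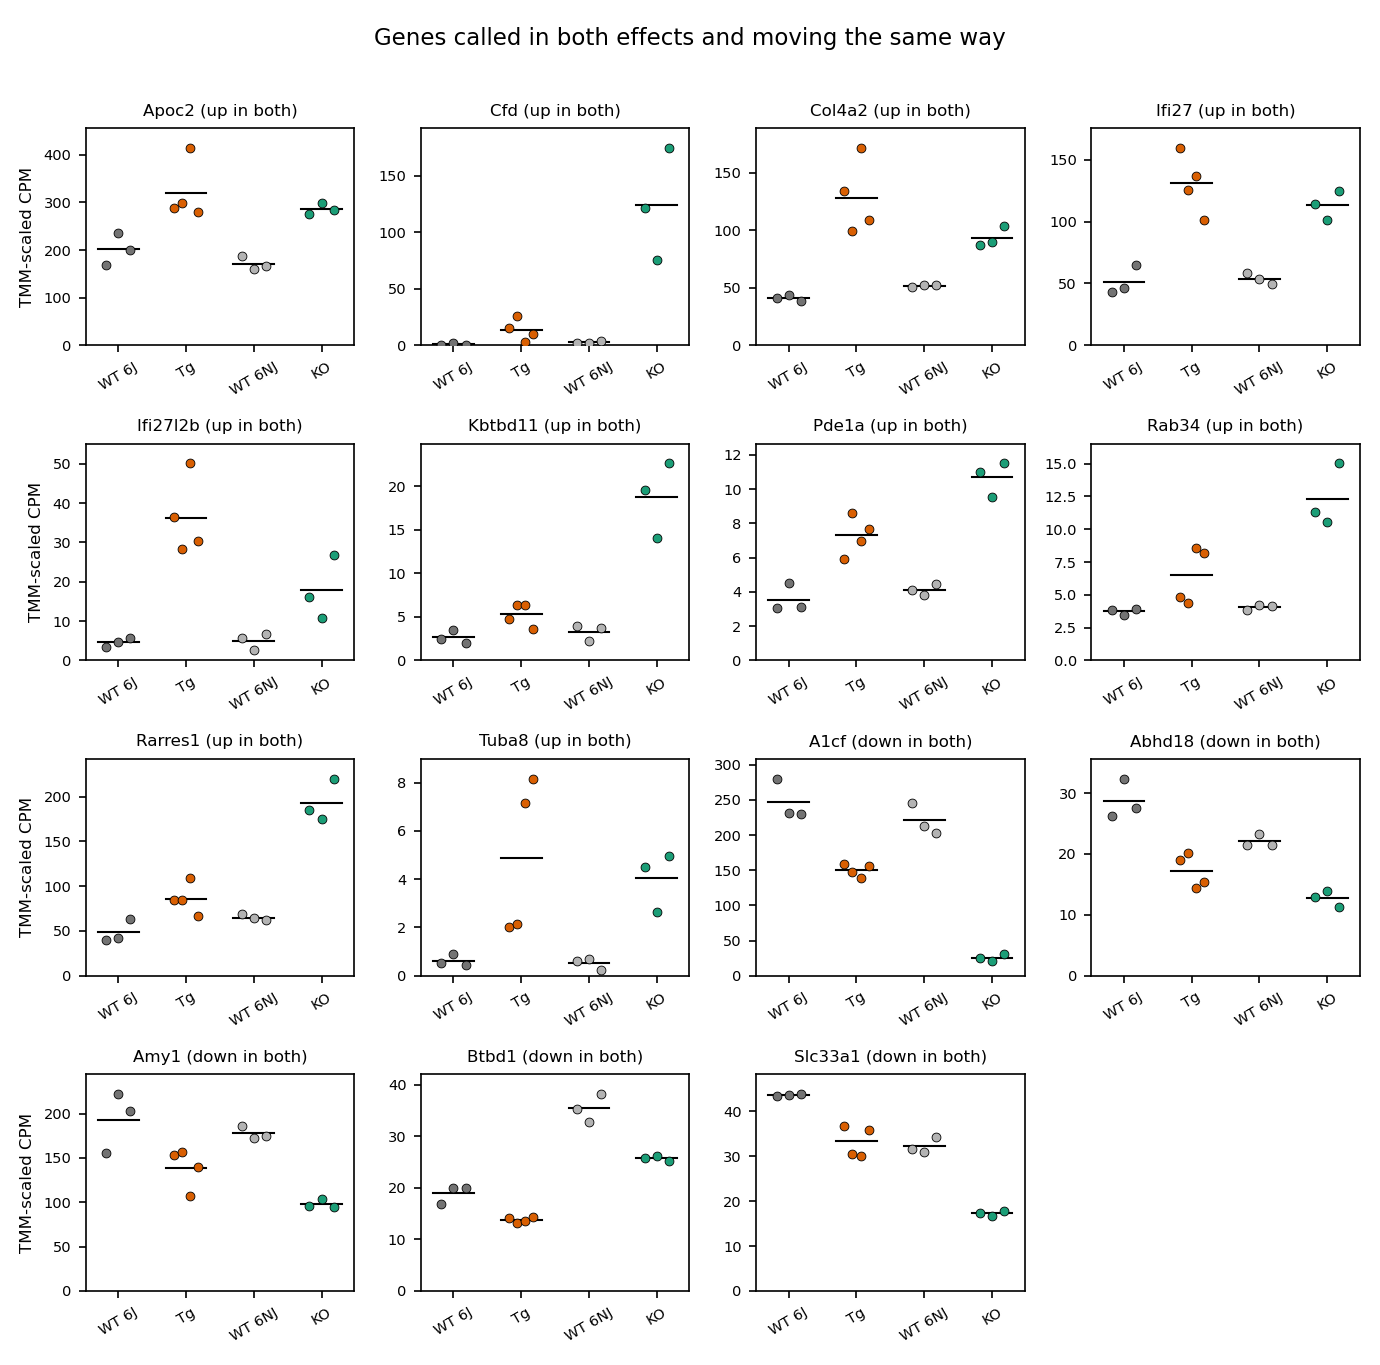
TMM-scaled CPM (y axis, from 0) of 15 of the 16 genes called in both effects with the same sign, in the 3 WT 6J, 4 Tg, 3 WT 6NJ and 3 KO pools. Points are pools and horizontal lines group means; Ifi27 rises from like control levels to 101 to 159 in Tg and 101 to 125 in KO, and A1cf is lowest in KO, at 20.5 to 30.4.

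Between the controls 3463 genes (21.8%) were called, 1242 (7.81%) higher and 2221 lower in 6J, and the pools of 39.7% of genes did not overlap. The comparison of the controls shares its libraries with both effects, so the values are given side by side only. The control difference (6J over 6NJ) was -4.33 for Asns, -6.56 for Meg3, -2.04 for Capn8, 2.08 for Ntrk2, -1.48 for Acot1, -1.01 for Csad, -0.83 for Cyp4a32 and -0.64 for Ccdc171, each called. For A2ml1, Tmem62 and Mup21 it was 0.06, -0.19 and 0.12, and not called. Of the 16 same-way genes, Slc33a1 (0.44) and Btbd1 (-0.91) were called between the controls. The median of the cytoplasmic ribosomal protein list, 37 tested, was -2.85 between the controls and -0.04 and -0.07 in the effects.

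Of the genes with the largest positive differences, several were called through the Tg effect alone. Hsf2bp, which encodes a binding partner of heat shock factor HSF2, read 0.286, 0.355 and 0.124 in 6J, 4.97, 3.97, 6.22 and 6.52 in Tg, 0.562, 0.900 and 0.692 in 6NJ and 0.270, 0.213 and 0.427 in KO. Its difference was 5.61 (adjusted p = 0.000469), with a Tg effect of 4.37 (adjusted p = 0.000111) and a KO effect of -1.24 (adjusted p = 0.17). Ly6d, a cell surface marker of lymphoid and epithelial progenitors, read 0.802, 1.01 and 0.865 in 6J, 21.5, 8.12, 217 and 82.2 in Tg, 1.12, 1.95 and 16.9 in 6NJ and 2.02, 1.63 and 2.85 in KO, with a difference of 8.17 (adjusted p = 0.0315). The Tg pools of Ly6d were far apart and all above the 6J pools, and the KO pools lay within the 6NJ range. Dhrs9, a retinol-metabolising dehydrogenase, had a difference of 6.20 (adjusted p = 0.0164) from a Tg effect of 3.66 (adjusted p = 0.00961) and a KO effect of -2.54 (adjusted p = 0.222). Slc13a5, the citrate transporter, read 1.54 to 2.81 in 6J, 5.50 to 11.5 in Tg, 1.16 to 2.36 in 6NJ and 0.641 to 0.815 in KO. Its difference was 3.61 (adjusted p = 0.00319) and its KO effect -1.35 (adjusted p = 0.116).

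Among the negative differences Col27a1, a fibrillar collagen, read 111, 71.3 and 84.5 in 6J, 26.6, 32.1, 36.9 and 29.6 in Tg, 75.9, 55.9 and 36.7 in 6NJ and 138, 72.7 and 157 in KO. Its difference was -2.64 (adjusted p = 0.00618), the Tg effect -1.51 (adjusted p = 0.00558) and the KO effect 1.13 (adjusted p = 0.102). Serpine2, an inhibitor of thrombin, had a difference of -2.55 (adjusted p = 0.00149), from 18.2 to 33.8 in 6J to 5.77 to 9.44 in Tg, and from 18.2 to 27.9 in 6NJ to 37.2 to 48.6 in KO. Its KO effect of 0.80 did not pass (adjusted p = 0.141). Of the other large negative differences, Xirp2, Mybpc1 and Cmya5 are muscle genes outside the muscle list, and KO pool 1, which held the most Acta1, was also highest in each: 5.20, 3.41 and 7.63. They are given as values only. Slc13a5 and Serpine2 were chosen after their values were seen.

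Genes called through the KO effect alone included En2, a homeobox gene, at 0.321, 0.186 and 0.404 in 6NJ and 11.5, 13 and 17.2 in KO, against at most 0.296 in 6J and Tg. The KO effect was 5.49 (adjusted p = 1.73e-05) and the difference -7.80 (adjusted p = 0.00462). Counts are given per gene, so the part of En2 that was read is not known. Whether the knockout allele itself contributes to the En2 counts was not tested. Nipsnap2, a mitochondrial protein, read 14 to 16.2 in 6NJ and 48.5 to 61.3 in KO, and 14 to 14.5 in 6J and 10.0 to 16.3 in Tg, with a difference of -2.02 (adjusted p = 0.000541). Enho, which encodes the peptide adropin, read 6.38, 18.5 and 4.90 in 6NJ and 0.472, 0.708 and 1.25 in KO, with a KO effect of -3.62 (adjusted p = 0.00885), a Tg effect of 0.63 (adjusted p = 0.413) and a difference of 4.25 (adjusted p = 0.0155). Retsat, the retinol saturase, rose in KO by 1.19 (adjusted p = 0.0339) with a difference of -1.53 (adjusted p = 0.0315). Nipsnap2, Enho and Retsat were chosen after their values were seen.

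Of 24 tested cholesterol synthesis genes, 5 fell in KO (Cyp51, Hmgcs1, Hsd17b7, Idi1 and Nsdhl; 0.427% of all genes fell) and 2 in Tg (Sc5d and Stard4; 4.19% of all genes fell), and none rose in either. The medians were -0.86 in KO and -0.40 in Tg, beside -0.07 and -0.34 for the hepatocyte markers. Hmgcs1, the HMG-CoA synthase of the pathway, read 292, 326 and 305 in 6NJ and 90.5, 105 and 117 in KO, and 294, 491 and 384 in 6J and 316, 212, 400 and 324 in Tg. It was the gene of the list called in the difference (1.25, adjusted p = 0.0464; 1.97% of all genes were called), with a KO effect of -1.56 (adjusted p = 0.00296) and a Tg effect of -0.32 (adjusted p = 0.33). The KO effects of Cyp51, Nsdhl, Hsd17b7 and Idi1 (the last chosen after its values were seen) were -1.47, -1.32, -1.07 and -1.82.

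Of 28 tested Kupffer cell and macrophage markers 23 rose in Tg (6.62% of all genes rose), 1 fell and none was called in KO. In the difference 3 were higher (C1qb, Itgam and Mpeg1; 1.15% of all genes were higher) and Cd163 was lower (0.823% of all genes were lower), so that for the other markers a difference between the effects was not shown. The list's medians were 1.07 and -0.01, the latter turning to 0.01 under upper-quartile scaling, and its summed level in deposited CPM was 966 to 1575 in Tg, 553 to 608 in 6J, 728 to 840 in KO and 692 to 912 in 6NJ. The left-out wild-type 6J pool 2 had a sum of 985, within the Tg range. Mpeg1, a macrophage pore-forming protein, read 66.2, 62.6 and 71.0 in 6J, 174, 127, 209 and 134 in Tg, 78.5, 65.4 and 78.0 in 6NJ and 68.3, 62.1 and 90.1 in KO. Its difference was 1.28 (adjusted p = 0.0239). Cd163, the haemoglobin scavenger receptor of resident macrophages, went the other way, from 28.4, 39.9 and 24.7 in 6J to 9.72, 15.1, 5.76 and 8.46 in Tg.

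The antigen presentation list, 19 tested, had 9 genes that rose and 1 that fell in Tg (6.62% and 4.19% of all genes), and none called in KO. Its 4 genes called in the difference were all class II genes, Cd74, H2-Aa, H2-Ab1 and H2-Eb1, with differences of 1.66, 1.30, 1.5 and 1.57 (adjusted p = 0.0453, 0.0353, 0.0324 and 0.02). Among all genes 1.15% were higher in the difference. Of 12 tested B and plasma cell markers, 4 were higher in the difference (1.15% of all genes), and the medians were 1.42 in Tg and -1.49 in KO. No KO effect of this list was called, and 6NJ pools were themselves spread: Igkc, the kappa light chain, read 48.8, 22.0 and 66.4 in 6NJ, 11.6, 12.8 and 21.5 in KO, 11, 8.99 and 10.5 in 6J and 41.7, 17.3, 92.6 and 38.2 in Tg. The hepatocyte marker sum was lower in Tg than in 6J, with Alb and Cebpa called among its 24 genes (4.19% of all genes fell in Tg). Alb made up the largest part of the sum, at 43685 to 50349 deposited CPM in Tg and 74451 to 77435 in the 6J pools used. For Ttr, Ahsg and Hnf4a the Tg and 6J pools overlapped. The part of the cell types in the Tg effects was not tested.

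Of 28 tested oncofetal and liver tumour genes, 13 rose in Tg, none fell and none was called in KO, and 4 were higher in the difference (6.62% of all genes rose in Tg and 1.15% were higher in the difference). Afp, the fetal serum protein alpha-fetoprotein, read 2.64, 2.48 and 2.10 in 6J, 4.70, 3.78, 8.30 and 5.64 in Tg, 2.45, 2.27 and 1.87 in 6NJ and 0.844, 1.35 and 1.14 in KO. Its difference was 2.20 (adjusted p = 0.0168), its Tg effect 1.22 (adjusted p = 0.0145) and its KO effect -0.98 (adjusted p = 0.175). Of 22 circadian clock genes 13 fell in Tg (4.19% of all genes fell) and none was called in KO. In the difference 2 were lower (0.823% of all genes were lower), among them Cry1, a repressor of the clock (-1.40, adjusted p = 0.012). The clock medians were -0.74 and 0.10. The hour at which livers were taken is not given in the labels used here.

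**Figure D4:**
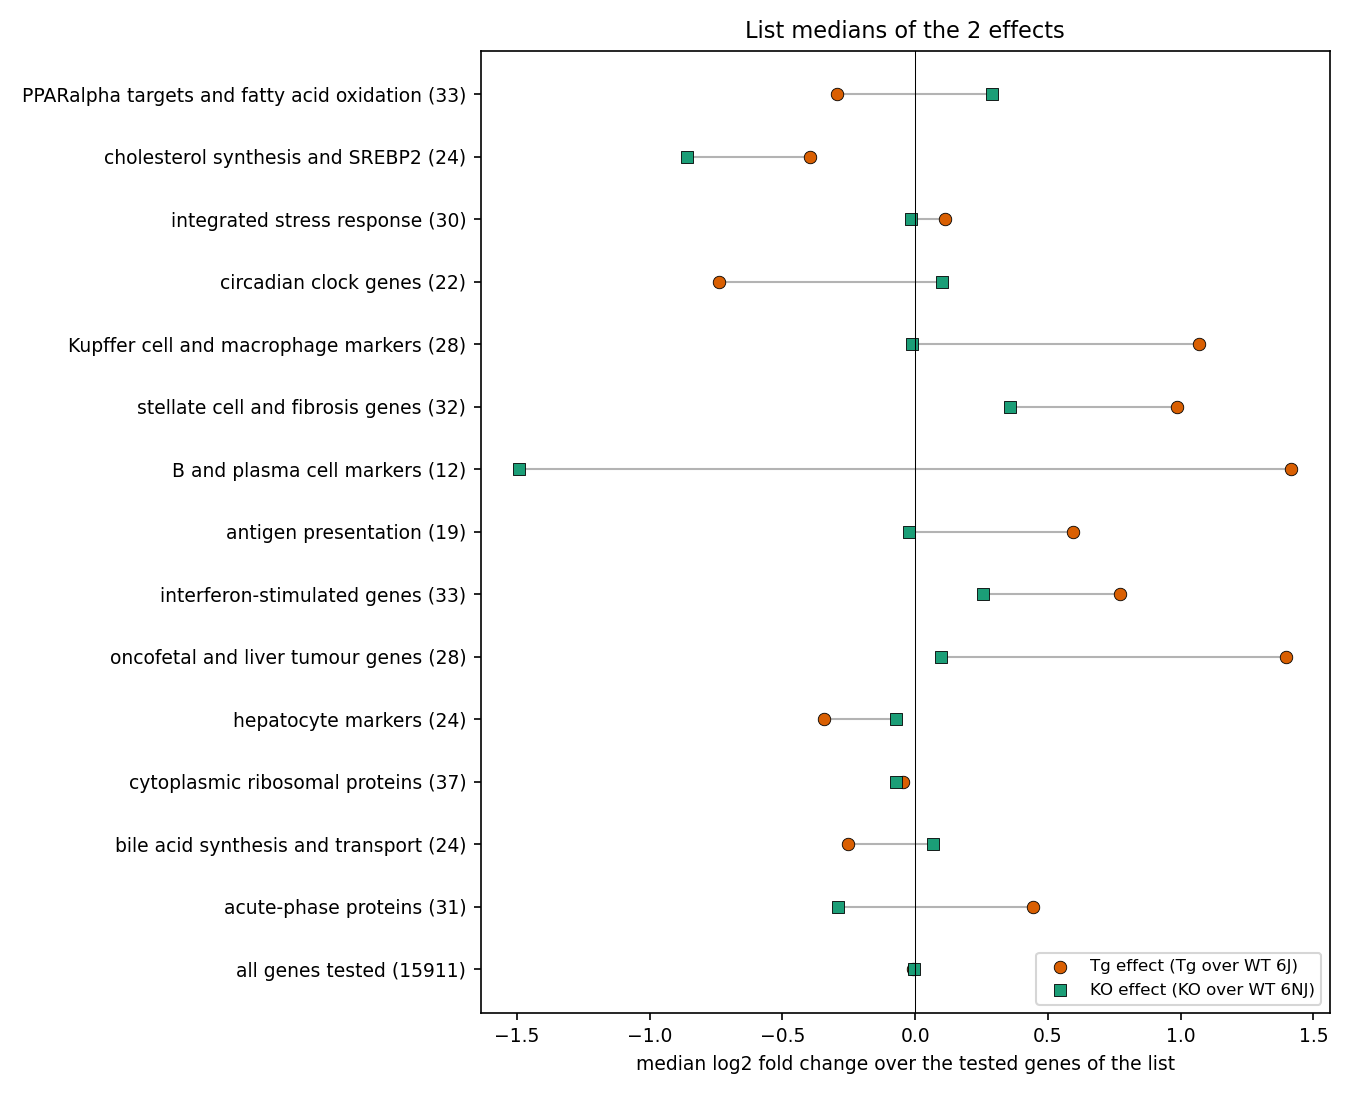
Median log2 fold change (x axis) of the tested genes of 14 lists and of all genes, with the number tested in brackets. Circles are the Tg effect and squares the KO effect. The medians lie on opposite sides of 0 for the PPARalpha list, at -0.30 and 0.29. They lie on the same side for cholesterol synthesis, at -0.40 and -0.86, and for hepatocyte markers, at -0.34 and -0.07.

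Among factors of Apob editing, Rbm47, an RNA-binding cofactor of APOBEC1, read 214, 195 and 198 in 6J, 125, 169, 132 and 129 in Tg, 221, 208 and 191 in 6NJ and 303, 277 and 313 in KO. Its difference was -1.08 (adjusted p = 0.00832), from a Tg effect of -0.55 (adjusted p = 0.0113) and a KO effect of 0.53 (adjusted p = 0.074). The KO pools lay above the 6NJ pools and the Tg pools below the 6J pools, and the KO effect did not pass. Apobec1 rose in Tg by 0.90 (adjusted p = 0.00869). Apob, chosen after its values were seen, had effects of -0.28 (adjusted p = 0.178) and 0.00 (adjusted p = 0.996).

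Plated hepatocytes of 12-week-old mice gave a readout of the Tg effect in libraries that did not enter the classes. Of 13770 genes tested there, 434 (3.15%) were called between 3 pools labelled Tg and 3 wild-type 6J pools, 211 (1.53%) higher and 223 lower in Tg, a count that rested on single pools. Leaving out Tg pool 1 gave 29 calls, Tg pool 2 gave 12 and Tg pool 3 gave 4934. Leaving out a wild-type pool gave 44 (pool 1), 90 (pool 2) or 0 (pool 3). The fit with 0 calls by edgeR held 2402 genes at an unadjusted p below 0.05. The 4 class genes called in hepatocytes had the direction they had in liver. Cfd read 3.04, 5.86 and 2.32 in the Tg pools and 0.152, 0 and 0.082 in the wild-type pools (5.56 ± 0.78, adjusted p = 0.0247). Tuba8 read 13.8, 11 and 8.68 against 3.88, 2.01 and 3.01 (1.91 ± 0.30, adjusted p = 0.0304). Rarres1 read 22.1, 26.8 and 24.4 against 12.0, 12.8 and 13.5 (0.94 ± 0.15, adjusted p = 0.0304). Mup21 read 2.52, 1.72 and 3.43 against 11.5, 61.2 and 16.8 (-3.55 ± 0.70, adjusted p = 0.0485). The Tg and wild-type pools of these 4 genes did not overlap, beside 32.9% of all genes tested in hepatocytes. Asns and Acot1 were not called there, at 0.53 (adjusted p = 0.231) and -0.18 (adjusted p = 0.737), nor was A1cf, at 0.02 (adjusted p = 0.962), and Meg3, Capn8 and Pde1a did not pass the filter on low counts. Of the genes with the largest differences, Igdcc4, Ly6d, Mas1 and Hsf2bp were called higher in Tg hepatocytes, by 5.99, 3.70, 4.40 and 2.69 (adjusted p = 0.00582, 0.00582, 0.0329 and 0.0363). Hepatocyte values of other genes with large differences outside the classes are not given here. All these calls come from the comparison whose count rested on single pools.

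RNA recovered with A1CF was counted in 10 crosslinking and immunoprecipitation (CLIP) libraries of hepatocytes labelled Tg, with 80854 counts in all. Of the liver genes tested 26.6% had at least 1 CLIP count. Of the 27 class genes, Col4a2 had 8 counts in 5 libraries (0.00989% of counts), Csad and Ccdc171 had 1 count each, and the other 24 had none, which allows a share of up to 0.00371% for each. These values are levels with no control precipitate among the libraries used here, and no test was made.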

How the data were processed

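RNA pools were selected with oligo(dT) and sequenced on an Illumina HiSeq2000, per the labels' protocols. Per the submitters' processing notes the tools include bcl2fastq, STAR 2.0.4b and featureCounts 1.45 (Subread), and the build is GRCm38; the strand setting and annotation release are not given in the sources used here. The authors deposited a raw count and a CPM for each of 41388 genes; the deposited count was analysed, and the deposited CPM (count over library total) served for marker levels and the Acta1 rule. Of the identifiers, 40254 had a name in the gene list used. The members, gene lists and tests were chosen with earlier results of these data known.

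Counts of the 13 pools were filtered with filterByExpr (minimum count 10, total 15), scaled by TMM and fitted as 4 groups with the quasi-likelihood F-test of edgeR 4.0.16 in R 4.3.3 (9 residual degrees of freedom). Tests are two-sided, with Benjamini-Hochberg adjustment over all genes tested and 0.05 as threshold; errors are SE. Hepatocytes were fitted on their own 6 libraries (4 residual degrees of freedom). DESeq2 1.42.0 and limma-voom (limma 3.58.1) were alternatives. On simulated counts with 3 to 4 pools a group, the difference of effects recovered 34% of genes changed by 1 log2 unit and 93% of those changed by 2, with 5 false calls among 15478 genes. Each simulated gene had the same mean and the same spread in all 4 groups. Changes were placed in KO alone, in genes with a mean of at least 2 TMM-scaled CPM. These rates need not hold for rarer genes, for groups of unequal spread or where the controls differ. No libraries were duplicates. Named genes were A1cf, up to 12 per class by the smaller effect, the 10 largest differences of each sign with a mean of at least 2 TMM-scaled CPM in a group, and up to 4 genes per list by p; unnamed models and muscle list genes were passed over, and other genes are identified as chosen later. Some genes that met this rule are not reported here.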

Additional observations from a re-analysis of the deposited data

Results flagged for a closer look

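Within the 4 Tg pools, the gap between the extreme pool and the next, divided by the range, was large for 3 of the 27 genes called in both effects (beyond Dixon's 95% critical value; 54 ends were examined, and chance alone passes it in about 1 in 20 groups). Apoc2 was 414 TMM-scaled CPM in Tg pool 3, above the 3 other pools. Cyp4a32 was 14.3 in Tg pool 2 and Mup21 was 54.7 in Tg pool 2, each above 3 close values. None of these values overlapped the 6J pools.

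The left-out 6J pool 2 exceeded every pool used in Acta1 and in Xist, the RNA of the inactive X chromosome. Acta1 was 778 CPM there and at most 44.8 CPM in the pools used, in KO pool 1. Xist was 935 CPM there and at most 3.91 CPM in the pools used. Ddx3y was 0.198 CPM in the left-out pool.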

How the results depend on the processing

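No called difference of a named gene reversed its direction under a setting run, nor did either effect of a gene called in both effects. For other named genes, the direction of the Tg or KO effect was not compared across settings. The same holds for the hepatocyte effects. Near 0, the KO medians of the apolipoprotein, xenobiotic, integrated stress response and Kupffer cell lists and the difference median of the red cell list changed sign between scalings. Calls in the difference (314) became 167 with all 4 6J pools, 515 with no filter, 1042 with DESeq2, 182 with limma-voom, 497 with the replicate block and 46 at an adjusted p below 0.01. The Tg effect (1720) became 1122 with limma-voom, 1122 with all 6 RNA groups in one fit and 385 when fitted on its own libraries. The KO effect (136) became 61 with all 4 6J pools, 380 with DESeq2 and 475 on its own libraries. Opposite genes (11) became 18 with no filter, 40 with DESeq2, 7 with limma-voom and 4 at 0.01. Same-way genes (16) became 32 with no filter, 62 with DESeq2, 8 with all 6 groups in one fit and 4 at 0.01. Hepatocyte calls (434) became 2017 with DESeq2 and 21 with the replicate block. Without 1 pool, calls ran from 68 to 744 in the difference, 793 to 2348 in Tg, 55 to 184 in KO, 5 to 17 for opposite genes, 6 to 34 for same-way genes, 2518 to 3825 between the controls and 0 to 4934 in hepatocytes. With the replicate block 6 of the 11 and 11 of the 16 genes remained; equal numbers did not pair pools (correlations -0.0492 to 0.0483). An alternative chosen after seeing the data left out the 2 KO pools with the most Acta1: 15 differences, 1000 Tg, 11 KO, 1 opposite (Meg3) and 1 same-way (A1cf) call remained, with 1 KO pool assumed to vary like the other groups. The cause of these shifts was not tested; fewer pools entered the leave-out fits. The share of called differences that were higher, 58.3% as reported, was 44.1% to 63.9% without 1 pool and 44.5% with limma-voom.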
